A study of Bos taurus with 8 samples.

Results

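The genes examined were 10 members of the oxysterol-binding protein-like family (OSBPL1A, OSBPL2, OSBPL3, OSBPL5, OSBPL6, OSBPL7, OSBPL8, OSBPL9, OSBPL10 and OSBPL11), read in 480 of the 902984 consecutive 3 kb windows of the bovine genome (build UMD v3.1), or 10 of the 26107 gene symbols in the window tables. A window belonged to a gene when its table gave that gene's symbol. The family was chosen by measured values, because a window at exon 16 of OSBPL6 had met the thresholds for a difference between breeds in these same libraries. All breed differences at the family are therefore given as a description. DNA came from dermal fibroblast cultures of Holstein (a dairy breed) and Angus (a beef breed) heifers that were of the same age at skin sampling, with 4 animals of each breed. All 8 cultures were at passage 5 and untreated, with no LPS, and each gave 1 library. Cultures are named here by breed and animal number. Calves of dairy and beef breeds are usually reared in different ways, so breed and early rearing cannot be told apart, and DNA reads carry no direct check of the cell type. MIRA-Seq pulls down sonicated DNA with proteins that bind methylated CpG sites, so a window's reads rise with both its methylation and its number of CpG sites.

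Oxysterol-binding protein-like proteins (ORPs) carry lipids between membranes at the sites where organelles touch. Their common domain holds a sterol or another lipid such as phosphatidylserine, often in exchange for the phosphoinositide PI4P, and many members reach the endoplasmic reticulum through VAP proteins. OSBPL1A acts at late endosomes and OSBPL2 at the plasma membrane, OSBPL3, OSBPL6 and OSBPL7 form a subfamily, OSBPL5 and OSBPL8 are anchored in the endoplasmic reticulum and exchange phosphatidylserine for PI4P, and OSBPL9, OSBPL10 and OSBPL11 act at the Golgi and endosomes. In mammals, methylation is commonly low at active promoters that are rich in CpG and higher along gene bodies.

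The libraries held 18691111 to 35525554 reads over all windows, and levels are given as CPM, the count scaled to the library's total. A count of 3 reads, taken as the smallest to be told from 0, equalled 0.0844 to 0.161 CPM, which covers counting error only, since PCR copies are not independent molecules. In Holstein 1 and Angus 3 reads were concentrated in few windows: the top 1% of windows held 69.0% and 72.4% of their reads, against 46.8% in the lowest library. Every one of the 10 genes had its lowest level in Angus 3, and 9 of the 10 had the second lowest in Holstein 1. Scaling by trimmed mean of M values (TMM), edgeR's default, adjusts the level of each library by a single factor in the breed comparison. The factors were 0.677 for Angus 3 and 0.817 for Holstein 1. This scaling leaves the spread of a library's reads over windows as it was. It also moves the median log2 difference between breeds over all tested windows from 0.140 with total counts to -0.00205.

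The level of a gene, as mean CPM per 3 kb window, ranged over the family from 3.69 ± 0.837 (SD, n = 8 cultures) in OSBPL5 to 0.255 ± 0.0725 in OSBPL9. OSBPL5 and OSBPL7 stood well above the rest and were close to each other. OSBPL5, on chr29:49122219-49158218 (plus strand, 12 windows), had 2.87, 3.98, 3.59 and 4.61 CPM per window in Holstein 1 to 4, and Angus 1 to 4 had 3.09, 3.92, 2.52 and 4.92. OSBPL7, on chr19:39253275-39265274 (plus strand, 4 windows), had 2.91, 3.93, 3.76 and 4.50 in Holstein 1 to 4, and Angus 1 to 4 had 2.90, 3.72, 2.57 and 4.67. OSBPL5 was the higher of the pair in 5 of 8 cultures, so their order was not settled, and the breeds overlapped in both genes. Among the 17008 genes with at least 3 windows, their levels were at the 96.3 and 96.1 percentiles.

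OSBPL2, on chr13:55449797-55485796 (minus strand, 12 windows), followed with 1.56 ± 0.341 CPM per window (81.6 percentile). OSBPL10, the longest of the family on chr22:6202767-6556766 (minus strand, 118 windows), had 1.03 ± 0.201 (69.4 percentile). OSBPL1A, on chr24:32679731-32898730 (plus strand, 73 windows), had 0.624 ± 0.154 (53.9 percentile). These mid-level genes kept their order in all 8 cultures, each above the next.

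OSBPL6, on chr2:18473734-18695733 (minus strand, 74 windows), had 0.314, 0.574, 0.421 and 0.542 CPM per window in Holstein 1 to 4, and Angus 1 to 4 had 0.505, 0.410, 0.259 and 0.399 (0.428 ± 0.109 over all, 41.5 percentile). The breeds overlapped, and OSBPL6 was below OSBPL1A and above its relative OSBPL3 in 8 of 8 cultures. OSBPL3, on chr4:71294705-71495704 (plus strand, 67 windows), had 0.369 ± 0.104. The OSBPL3, OSBPL6 and OSBPL7 subfamily thus spanned the range from the second to the seventh place of the order.

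At the low end were OSBPL8 on chr5:5821806-5923805 (minus strand, 34 windows, 0.305 ± 0.0755), OSBPL11 on chr1:70571101-70664100 (minus strand, 31 windows, 0.272 ± 0.0842) and OSBPL9 on chr3:95125310-95290309 (minus strand, 55 windows). OSBPL8 was above OSBPL11 in 7 of 8 cultures and OSBPL11 above OSBPL9 in 6 of 8, so this last order was not settled in every culture. In OSBPL9, 31 of 55 windows lay below 0.2 CPM, close to the limit of 3 reads. OSBPL5 and OSBPL8, which share a function, thus had levels far apart in the family.

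**Figure D1:**
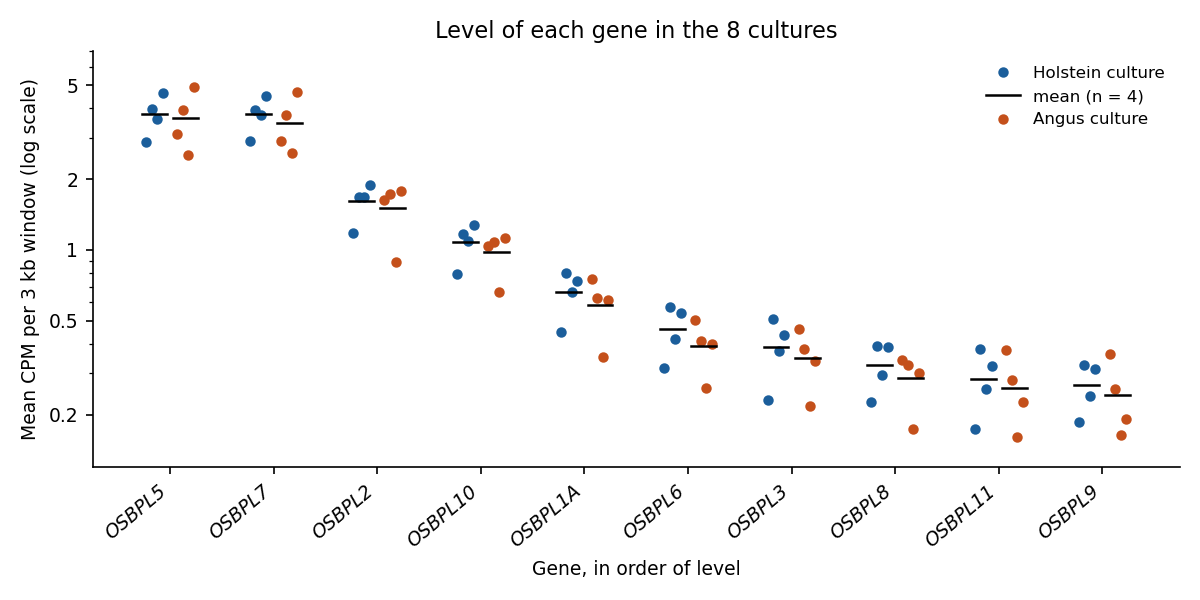
Mean CPM per 3 kb window (log scale) of each gene in each culture, blue for Holstein and orange for Angus, with a black line at each breed's mean (n = 4). OSBPL5 (3.69) and OSBPL7 (3.62) stand apart at the top, the breeds overlap in every gene, and the lowest point of each gene is Angus 3.

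Higher levels tended to go with a larger coding share and with fewer windows. The share of windows that touched a coding exon ran from 8.47% in OSBPL10 to 100% in OSBPL7, and its correlation with the log2 level over the 10 genes was 0.684 (Pearson) and 0.430 (Spearman). The log2 number of windows of a gene correlated with the log2 level by -0.701 (Pearson) and -0.347 (Spearman). The 10 points share the same libraries and differ in size and base composition, so these values are only a description. The median member window had 0.395 CPM, against 0.339 over the 354832 windows with a gene symbol and 0.280 over all windows.

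The breed difference that led to the choice of this family lay in window 68 of the 74 windows of OSBPL6, counted from the 5′ end of the gene, at chr2:18491734-18494733. The table names exon 16 of the coding sequence there; it gives 1 exon per window, so further exons may lie in it. The window held 20, 24, 35 and 53 reads in Holstein 1 to 4, which are 1.01, 1.04, 1.32 and 1.49 CPM. It held 16, 15, 5 and 9 reads in Angus 1 to 4, which are 0.559, 0.522, 0.168 and 0.482 CPM. All 4 Holstein cultures were above all 4 Angus cultures (1.22 ± 0.232 against 0.432 ± 0.179, SD, n = 4 each), and the lowest value was that of Angus 3.

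On the TMM scale the Holstein cultures had 1.24, 0.928, 1.22 and 1.23 CPM and the Angus cultures 0.587, 0.476, 0.248 and 0.412 CPM, again without overlap. The fitted log2 difference, Holstein over Angus, was 1.37 (SE 0.27). Without Angus 3 it was 1.21, and without both Holstein 1 and Angus 3 it was 1.19. The window reached the filter for testing, at least 1 CPM in at least 4 of the 8 libraries, only through its 4 Holstein libraries. Without Holstein 1 and Angus 3 it missed the filter and was added for the fit. Its deepest single position held 20.8 to 45.0% of the reads in Holstein cultures and 33.3 to 56.3% in Angus cultures, beside medians of 21.4 to 33.3% per culture in the 154 member windows of similar depth (100 to 300 reads over the 8 cultures). The part of stacked reads in the difference was not tested.

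The windows on either side did not share this separation. Window 66, which names exon 13, had 0.253, 0.649, 0.757 and 0.732 CPM in Holstein 1 to 4, and Angus 1 to 4 had 0.733, 0.348, 0.369 and 0.642. Window 67, without a named coding exon, had means of 0.218 ± 0.107 in Holstein and 0.193 ± 0.136 in Angus. In both windows the breeds overlapped over most of their range. Window 69, next downstream and naming exon 18, had 0.506, 0.433, 0.530 and 0.619 CPM in Holstein 1 to 4, and Angus 1 to 4 had 0.489, 0.313, 0.269 and 0.214, so that Holstein was higher on average but Angus 1 lay within the Holstein range. In window 70 the order of the means was the opposite (0.261 ± 0.136 against 0.294 ± 0.140), with wide overlap.

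**Figure D2:**
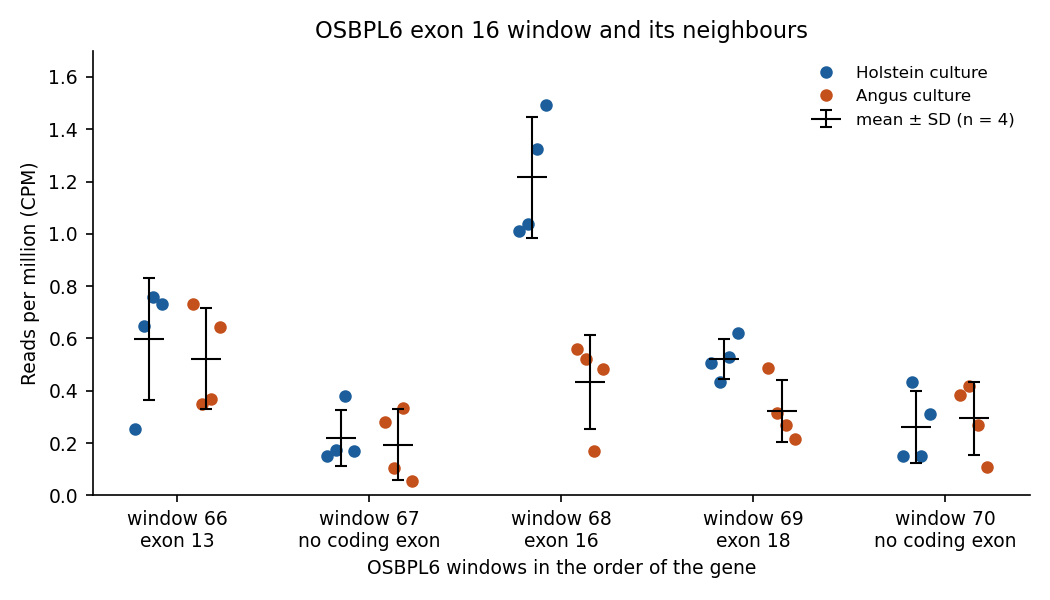
CPM of the OSBPL6 exon 16 window and the 2 windows on each side, for each Holstein (blue) and Angus (orange) culture, with the mean and SD of each breed (n = 4). In window 68 the Holstein cultures sit between 1.01 and 1.49 and the Angus cultures between 0.168 and 0.559, while in the other 4 windows the breeds overlap.

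In the rest of OSBPL6 the breed means differed less than at exon 16. The other 73 windows had mean levels of 0.0490 to 1.94 CPM (median 0.371), and 7 of them were above the exon 16 window. Their log2 ratio of breed means, as CPM + 0.1, had a median of 0.163 and a range of -0.462 to 0.773, beside 1.31 in the exon 16 window on the same scale. The median was 0.126 over all member windows and 0.112 over all windows with reads, so a small excess in Holstein on this unadjusted scale was shared by the genome at large. OSBPL6 window 21, at chr2:18632734-18635733 and without a named coding exon, also separated the breeds on the TMM scale, with 1.25 to 1.73 CPM in Holstein and 0.744 to 1.19 in Angus. On unadjusted CPM its breeds overlapped, and its log2 difference of 0.53 (SE 0.21) did not meet the thresholds (adjusted p = 0.725, edgeR's likelihood-ratio test). OSBPL6 window 64, at chr2:18503734-18506733 and without a named coding exon, was the highest of the gene, with 1.42, 2.34, 2.23 and 2.03 CPM in Holstein 1 to 4, and Angus 1 to 4 had 1.92, 2.16, 1.38 and 2.03. It lies 4 windows upstream of the exon 16 window and showed no separation of the breeds (log2 difference -0.05, SE 0.17, TMM scale).

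**Figure D3:**
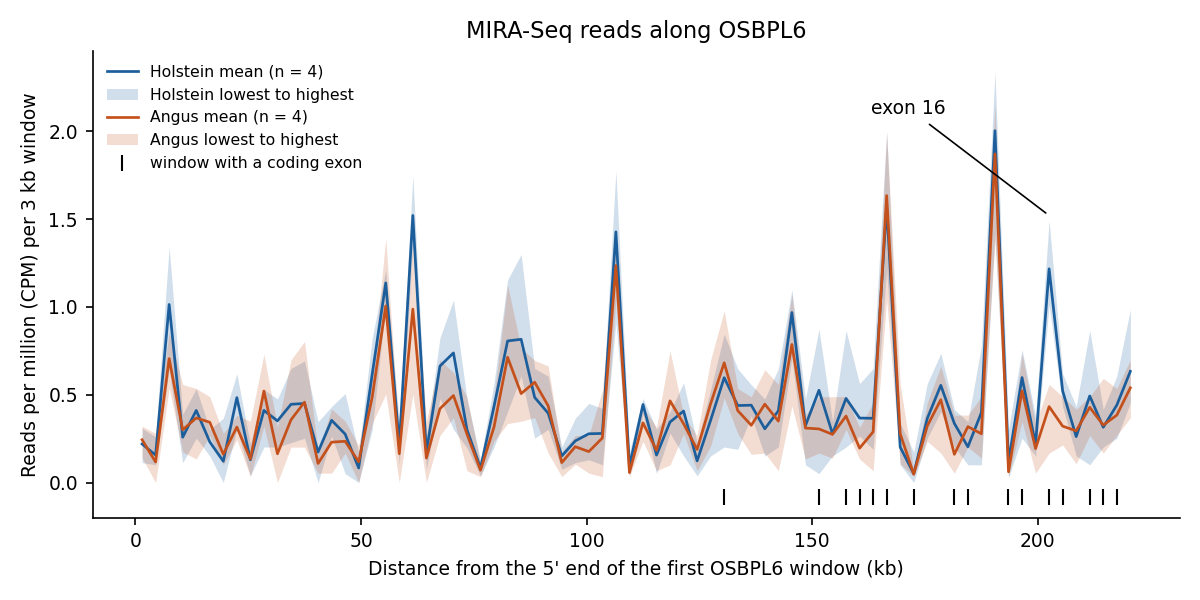
CPM of the 74 OSBPL6 windows against distance in kb from the 5′ end of the first window, as breed means (lines) and the range over the 4 cultures of each breed (shading), with ticks at windows that name a coding exon. The peaks recur in both breeds, the highest (window 64) with a mean of 2.00 CPM in Holstein and 1.87 in Angus. At exon 16 the Holstein range (1.01 to 1.49) clears the Angus range (0.168 to 0.559).

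Over the family, 89 of the 480 windows (18.5%) could be tested, beside 18.9% of the windows with a gene symbol. They were 43 windows of OSBPL10, 12 of OSBPL5, 11 of OSBPL1A, 9 of OSBPL2, 6 of OSBPL6, 4 of OSBPL7, 2 of OSBPL9 and 1 each of OSBPL3 and OSBPL8, and none of OSBPL11. With edgeR's likelihood-ratio test, an adjusted p under 0.1 and a fold change of at least 2, the exon 16 window of OSBPL6 was the 1 member window called, higher in Holstein. In the genome 0.0390% of the 115360 tested windows were called higher in Holstein and 0.192% higher in Angus. With unplaced scaffolds left out, 54 of 138302 tested windows were called higher in Holstein and 99 higher in Angus (45 and 222 with them included). Since this contrast chose the family, nothing is read from the count. The other 88 windows had log2 differences of -0.45 to 0.59, and 47 of the 89 were higher in Holstein. At an unadjusted p under 0.05 there were 4 member windows with the exon 16 window included (4.49% of the 89, beside 4.94% of all tested windows), and edgeR's quasi-likelihood test and DESeq2 without independent filtering also gave 4 each.

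Next to the exon 16 window in size of difference was an OSBPL10 window without a named coding exon, window 88 at chr22:6292767-6295766. It had 1.06, 1.34, 1.48 and 1.63 CPM in Holstein 1 to 4, and Angus 1 to 4 had 0.803, 1.01, 0.705 and 0.749, so the breeds did not overlap. Its log2 difference of 0.59 (SE 0.22) met neither the 2-fold nor the adjusted p threshold (adjusted p = 0.516 by edgeR's likelihood-ratio test and 0.874 by its quasi-likelihood test). Non-overlap with Holstein above was also found in OSBPL10 window 59 (0.675 ± 0.180 against 0.370 ± 0.0881 CPM), and with Angus above in OSBPL3 window 13 (0.179 ± 0.0483 against 0.300 ± 0.0710 CPM); both were too low to be tested. In all, 3 member windows had every Holstein culture above every Angus culture and 1 had the reverse, where 0.993% and 0.239% of all windows did. This count is on unadjusted CPM, which runs higher in Holstein over the genome. On the TMM scale there were 4 with Holstein above (OSBPL6 windows 68 and 21, OSBPL10 windows 88 and 59) and 3 with Angus above (OSBPL3 windows 13 and 54, OSBPL11 window 23), where 0.842% and 0.794% of all windows did. OSBPL3 window 54 had 0.521 to 0.810 TMM-scaled CPM in Holstein and 0.889 to 1.14 in Angus, and OSBPL11 window 23 held almost no reads. These windows beyond exon 16 were singled out after their values were seen.

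**Figure D4:**
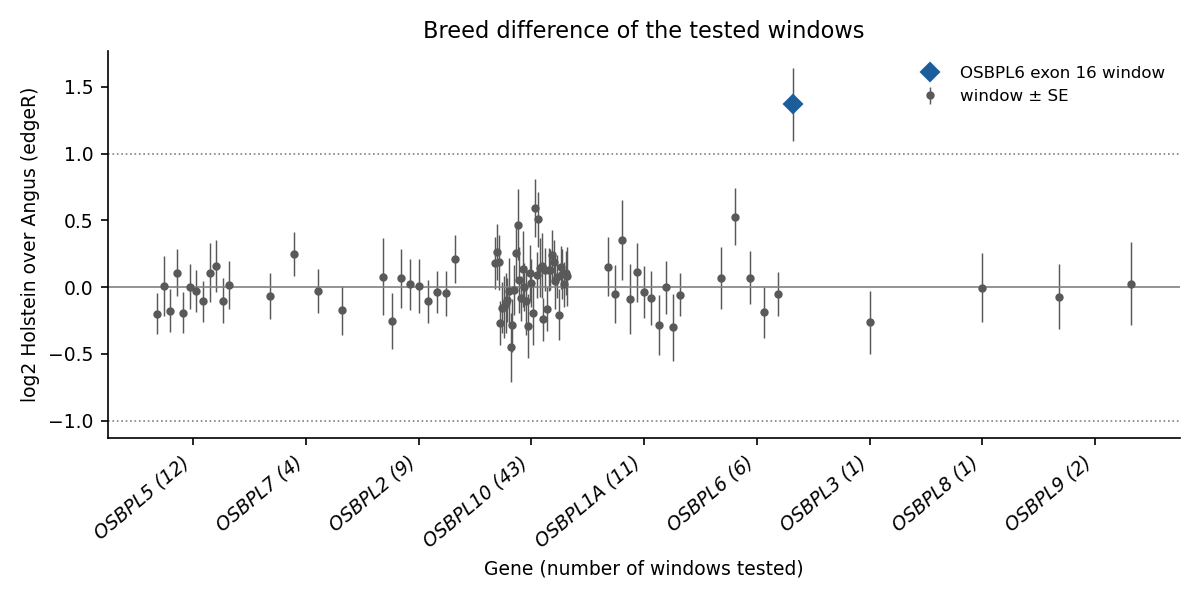
The log2 difference between breeds (Holstein over Angus, edgeR with TMM scaling) of the 89 tested windows by gene, in the order of each gene, with error bars of 1 SE and dotted lines at 2-fold. The exon 16 window of OSBPL6 lies at 1.37 and the others between -0.45 and 0.59.

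Summed over all windows of a gene, the breeds did not separate in any of the 10 genes on the TMM scale. The log2 differences lay between -0.10 (SE 0.16) in OSBPL5 and 0.07 (SE 0.12) in OSBPL6. OSBPL6 came to 0.04 (SE 0.12) when its exon 16 window was left out of the sum. By edgeR's likelihood-ratio test 0 member genes were called, beside 0.0721% of the 19417 genes tested, and 0 had an unadjusted p under 0.05. The quasi-likelihood test and DESeq2 without independent filtering also gave 0 and 0 for the members. Over all genes these 2 tests called 0 and 6, so nothing is read from the members' counts.

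Of 32 other genes of sterol transport and sensing, 31 were found, and 0 were called between breeds, beside 0.0721% of all genes tested. With so small a share over all genes, nothing is read from the 0. The 31 genes include the founding family members OSBP and OSBP2, the VAP anchors VAPA and VAPB, and the sterol regulators SCAP, SREBF1, SREBF2, INSIG1 and INSIG2. CH25H, the cholesterol 25-hydroxylase that makes an oxysterol, was the 1 gene of these 31 with an unadjusted p under 0.05 (log2 -0.51, SE 0.21, lower in Holstein, over 2 windows). It was singled out after its value was seen, and nothing is read from it. Its adjusted p by edgeR's likelihood-ratio test was 1.

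The start of a gene was compared with its remainder within each culture, as the log2 ratio of CPM + 0.1 of the first window, by strand, to the mean of the other windows. This measure joins both breeds and was not used to choose the family. It was fitted with limma over 16526 genes. The first window lay at least 2-fold below the rest, at an adjusted p under 0.1, in 2 of the 10 genes, OSBPL10 and OSBPL2, beside 31.3% of all genes; above by that much lay 0 of the 10, beside 7.92%.

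OSBPL10's first window, which names coding exon 1, had 0.0535 to 0.433 CPM over the 8 cultures (median 0.367), and the rest of the gene 0.669 to 1.28 (median 1.09). The first window was the lower in 8 of 8 cultures, by 1.74 on the log2 scale (log2 ratio -1.74, SE 0.19, limma adjusted p = 8.6e-07). It held 1 to 14 reads, with the lowest CPM in Angus 4, Angus 3 and Holstein 1. OSBPL2's first window had 0.354 to 1.08 CPM (median 0.907) and its rest 0.925 to 1.97 (median 1.74), again lower in 8 of 8 cultures (log2 ratio -1.02, SE 0.16, adjusted p = 4.1e-05). Its ratio is at the edge of the 2-fold threshold and falls short of it without Holstein 1, without Angus 4, and without both Holstein 1 and Angus 3.

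Counting differences of any size at an adjusted p under 0.1, the first window was below the rest in 6 genes, beside 58.6% of all genes. The other 4 were OSBPL6 (log2 ratio -0.70), OSBPL7 (-0.58), OSBPL11 (-0.54) and OSBPL8 (-0.35). It was above in 2 genes, OSBPL5 (0.48, SE 0.12) and OSBPL1A (0.45, SE 0.12), each in 8 of 8 cultures, beside 22.4%. OSBPL5's first window had 3.66 to 6.58 CPM (median 4.74), the fourth highest level of all 480 windows, although it names coding exon 1. For OSBPL3 (-0.28, SE 0.15) and OSBPL9 (-0.10, SE 0.17) the ratio did not pass. The ratio differed between breeds in 0 of the 16526 genes by limma (0% called; 719 genes, OSBPL3 among them, had an unadjusted p under 0.05).

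The annotated first window need not be the promoter that fibroblasts use. Coding exon 1 lay in the first window of OSBPL1A, OSBPL5, OSBPL7, OSBPL8, OSBPL9, OSBPL10 and OSBPL11, but in window 8 of OSBPL2, window 34 of OSBPL3 and window 44 of OSBPL6. At OSBPL6 the first window had 0.232 ± 0.0890 CPM (SD, n = 8), and the window of coding exon 1 had 0.639 ± 0.239. At OSBPL2 the window of coding exon 1 had 1.89 ± 0.591 CPM, against 0.784 ± 0.301 in the first window.

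Windows that name a coding exon were compared with the other windows of the same gene in the same way, leaving out the first window. The test covered 9197 genes and 9 of the 10 members, since all 4 windows of OSBPL7 hold coding exons. Coding windows were at least 2-fold above in 1 of the 9, OSBPL10, beside 20.0% of all genes, and 2-fold below in 0, beside 2.81%. In OSBPL10 the coding windows had 1.22 to 2.87 CPM (median 2.37) and the others 0.623 to 1.16 (median 0.983). Coding windows were higher in 8 of 8 cultures (log2 ratio 1.13, SE 0.07, limma adjusted p = 1.3e-07).

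By any amount, coding windows were above in 5 members, beside 58.5% of all genes. After OSBPL10 these were OSBPL2 (0.95, SE 0.06), OSBPL5 (0.59), OSBPL3 (0.32) and OSBPL1A (0.17), each in 8 of 8 cultures. They were below in 3, beside 26.4%, namely OSBPL11 (-0.43, SE 0.06, in 8 of 8 cultures), OSBPL9 (-0.20, SE 0.07, in 7 of 8) and OSBPL8 (-0.15, SE 0.07, in 5 of 8). For OSBPL8 the medians over cultures were nearly equal (0.308 CPM with and 0.310 without a coding exon). OSBPL6 did not pass (0.08, SE 0.05), its coding windows being higher in 6 of 8 cultures. These ratios do not separate coding windows from position in the gene, here cut into 3 stretches of like numbers of windows. In the last stretch, OSBPL3's coding windows were above its others in 1 of 8 cultures (0.444 against 0.476 CPM). The count was 2 of 8 in OSBPL6, 3 of 8 in OSBPL11 and 8 of 8 in OSBPL9 (0.230 against 0.165 CPM). It was also 8 of 8 in OSBPL10, OSBPL1A and OSBPL5. In OSBPL2 and OSBPL8 every window of that stretch was coding, so none could be compared. The ratio differed between breeds in 0 genes by limma (0% called; 343 genes, none of them a member, had an unadjusted p under 0.05).

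**Figure D5:**
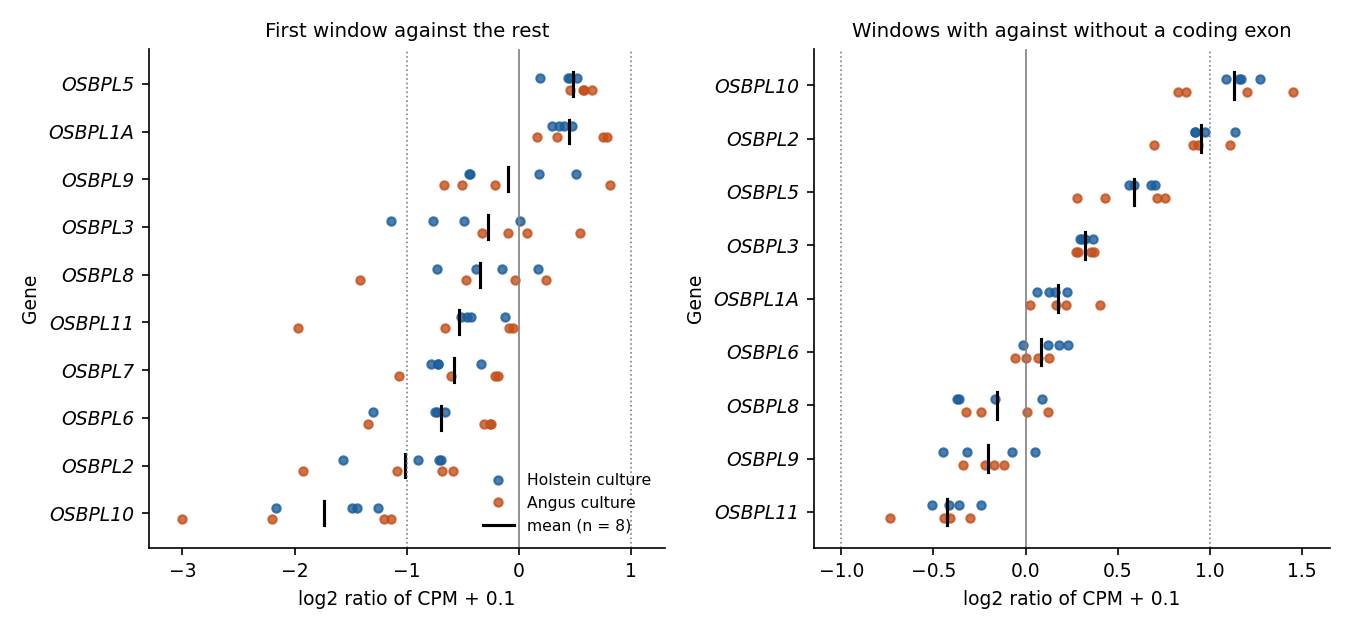
The log2 ratio of CPM + 0.1 within each culture (points, blue for Holstein and orange for Angus) and its mean over 8 cultures (black bar), for the first window against the rest (left) and for windows with against without a coding exon (right), with dotted lines at 2-fold. OSBPL10 is at the low end on the left (-1.74) and at the high end on the right (1.13), and OSBPL7 is not on the right because every window holds a coding exon.

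In the 30 other sterol genes that could be tested, the first window was 2-fold below in 16 and above in 0 (beside 31.3% and 7.92% of all genes), with a median log2 ratio of -1.07, beside -0.44 in the members and -0.50 over all genes. Coding windows were 2-fold above in 11 and below in 1 of 23 (beside 20.0% and 2.81% of all genes), with a median of 0.98, beside 0.17 in the members and 0.31 over all genes. These medians describe the lists and carry no test.

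Within the genes other than OSBPL7, which has only 4 windows, reads were not evenly spread. No share over all genes was computed for this comparison. With each gene cut into 3 stretches of like numbers of windows, OSBPL10 had 0.756 ± 0.161, 0.653 ± 0.155 and 1.66 ± 0.306 CPM per window (SD, n = 8) from its start to its end, and its last stretch was above its first in 8 of 8 cultures. Of its 10 coding windows, 6 lie in that last stretch, where they had 2.80 ± 0.713 CPM and the 34 other windows 1.46 ± 0.246, so the windows without a coding exon were also high there. Its highest window, number 103 at chr22:6247767-6250766, names no coding exon and had 4.65, 5.71, 5.60 and 5.38 CPM in Holstein 1 to 4, and Angus 1 to 4 had 4.99, 5.32, 4.16 and 7.54. OSBPL2, OSBPL1A, OSBPL3 and OSBPL6 also had more reads in the last stretch than in the first in 8 of 8 cultures, with 0.470 ± 0.129 against 0.400 ± 0.108 CPM in OSBPL6.

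OSBPL5, OSBPL8 and OSBPL9 ran the other way in all 8 cultures. OSBPL11 had 0.339, 0.184 and 0.292 CPM per window from start to end, its last stretch above its first in 1 of 8 cultures. OSBPL9 had 0.377 ± 0.0936 CPM per window in its first stretch and 0.196 ± 0.0588 in its last. Its highest window, number 12 and without a named coding exon, lay in the first stretch at chr3:95254310-95257309 and had 0.910, 2.16, 2.65 and 2.20 CPM in Holstein 1 to 4, and Angus 1 to 4 had 1.92, 1.88, 2.15 and 1.12, where the median window of the gene had 0.161. The highest windows of the other members included OSBPL5 window 4 at chr29:49131219-49134218 (exon 3, 6.69 ± 1.97 CPM, SD, n = 8), OSBPL7 window 2 (exon 5, 4.24 ± 1.16) and OSBPL2 window 11 (exon 8, 2.78 ± 0.685). The rest were OSBPL1A window 71 (exon 24, 2.59 ± 0.599), OSBPL3 window 62 (exon 19, 1.26 ± 0.450), OSBPL8 window 10 (exon 3, 1.06 ± 0.440) and OSBPL11 window 7 (no named coding exon, 0.882 ± 0.225).

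Of 66771 tested windows with a gene symbol on placed chromosomes, the 5 whose log2 values were most like those of the OSBPL6 exon 16 window over the 8 cultures were in VDAC1 (Pearson r = 0.985), NWD1 (0.984), ENTPD6 (0.978), KIF16B (0.978) and FNIP2 (0.977). The 8 points share library size and read concentration, and the 5 were picked as the highest of many, so the values describe likeness only. Among member windows the most alike were OSBPL10 windows 93 (0.929), 88 (0.903) and 113 (0.861) and OSBPL6 window 21 (0.852).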

How the data were processed

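MIRA-Seq libraries of 4 Holstein and 4 Angus fibroblast cultures were used. The authors filtered reads, aligned them to UMD v3.1 with NextGENe 2.3.4 (CASAVA 1.7 is named in the submitters' processing notes) and deposited raw read counts per 3 kb window, without normalization. They also deposited the lowest and mean coverage of each window, a signal not scaled for depth, and the highest coverage, which is capped; only the highest was used. How duplicate or multiply matching reads were handled is not given in the sources used here. There was no input library, so CpG density and copy number were not separated from methylation. Labels do not link animal numbers across breeds.

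Window and summed gene counts were compared with edgeR 4.0.16 in R 4.3.3, after the study's methods: at least 1 CPM in at least 4 libraries, a likelihood-ratio test, Benjamini-Hochberg adjustment over all windows or genes, and calls at FDR < 0.1 and 2-fold. TMM scaling was chosen here, since the paper's methods name no normalization. Each SE was derived from the log2 difference and its p through the chi-square distribution. DESeq2 1.42.0, quasi-likelihood tests and other settings were alternatives. Within-culture ratios, with a pseudocount of 0.1 CPM, were fitted with limma 3.58.1 for genes on placed chromosomes with a mean of at least 0.1 CPM per window. The first-window comparison required at least 3 windows per gene. The coding comparison required at least 2 windows of each kind, the first window left out. Scripts were tested on simulated data. Members, gene lists and tests were chosen with earlier results of these data known. Named by rule were each member's first and highest windows, called windows, the exon 16 window with 2 neighbours on each side, and the 5 most alike windows.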

Additional observations from a re-analysis of the deposited data

Results flagged for a closer look

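In 3 of 70 groups of 4 cultures, 1 value stood apart from the other 3 by Dixon's criterion, which chance meets in about 1 of 20 groups. In the first window of OSBPL2, Holstein 1 had 0.354 CPM, below the 1.01 to 1.04 CPM of the other Holstein cultures. In OSBPL6 window 67, next to the exon 16 window, Holstein 3 had 0.378 CPM, above the 0.152 to 0.173 CPM of the others. In OSBPL10, Angus 3 had 0.664 CPM per window, below the 1.04 to 1.12 of the other Angus cultures, and on the TMM scale it had 0.981 beside 0.957 to 1.09.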

How the results depend on the processing

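Of 90 recomputed values, 76 kept their direction and their side of the threshold or stayed within 1.5 times the count. This contrast chose the OSBPL6 exon 16 window, so its refits to the same counts are a description and give no independent support. Its log2 difference ranged from 1.21 (without Angus 3) to 1.55 (without Angus 1) when each library was left out. It was 1.51 with total counts and 1.39 without the CPM filter. Without each Holstein library in turn, and without both Holstein 1 and Angus 3, the window missed the CPM filter and was added for the fit. These fits count among the kept values. The window's adjusted p was 0.0614 with edgeR's quasi-likelihood test and 0.0218 with DESeq2 without independent filtering. The count of member windows called was 0 with DESeq2, whose independent filtering gave the window no adjusted p, 0 with 1 CPM required in all libraries, 0 to 1 with each library left out (0 without each Holstein library, since the window then missed the CPM filter) and 0 without both Holstein 1 and Angus 3, a setting chosen after seeing the data, for the same reason. Genes whose first window was 2-fold below the rest numbered 1 with the first 2 windows joined, 0 with a pseudocount of 1 CPM, 1 without both Holstein 1 and Angus 3, and 1 to 2 with each library left out. Genes with coding windows 2-fold above numbered 2 with window medians and 0 with a pseudocount of 1 CPM; the larger pseudocount pulls ratios of low windows towards 0, and the cause of the other changes was not tested. Member genes called stayed at 0 in every setting run.

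Same-numbered samples were not more alike than others. Their deviations from the breed means correlated by -0.202 to 0.113, beside -0.211 to 0.265 for different numbers, and 1 of 8 samples correlated best with its own number. With so few samples, these values cannot tell whether same-numbered samples were handled together. With the number as a replicate block, 1 member window and 0 member genes were called, the exon 16 difference was 1.39, 2 and 1 genes passed in the positional comparisons, and 346 windows were called in the genome instead of 267. Depth limits the low genes: 391 of 480 windows were not tested between breeds, among them all 31 of OSBPL11, and 68 had no read in at least 1 culture.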
